A study of Mus musculus with 12 samples.

Results

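The GTPases of the immunity-associated protein family (GIMAPs) are GTP-binding proteins made mainly by lymphocytes, where several of them sit on intracellular membranes. Their genes lie side by side in a single cluster, and loss of some members leaves mice or rats with fewer or shorter-lived T cells. *Gimap1* and *Gimap5* are the members best known to be needed for mature T cells to persist, *Gimap4* has been tied to T cell death, and *Gimap6* to autophagy. The members examined were the 8 genes of the count table named *Gimap1*, *Gimap3*, *Gimap4*, *Gimap5*, *Gimap6*, *Gimap7*, *Gimap8* and *Gimap9*, out of 25860 genes listed. By RefSeq genes of GRCm38.p6, the build that mm10 names, they lie on chromosome 6 from 48647186 to 48770851, a stretch of 124 kb.

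RNA-seq and ATAC-seq, an assay of open chromatin by transposase insertion, were performed on CD8+ T_prog_ cells, the stem-like progenitors of autoreactive T cells, from pancreatic lymph nodes. There were 3 RNA-seq and 3 ATAC-seq libraries of the *NOD-TCR 8.3 WT* genotype and as many of each from the *NOD-TCR 8.3 UTX TCD* group, and the question was how loss of UTX changes these cells. Both groups were females on the nonobese diabetic (NOD) background carrying the NY8.3 receptor transgene, which directs their T cells to the β cell antigen IGRP. The UTX TCD mice were *UTX fl/fl* with *Lck-Cre*, a recombinase driven in T cells, brought from B6 onto NOD by more than 10 generations of backcrossing. The methods describe WT controls as littermates lacking Cre. The age of the mice behind these libraries is not given, and the labels state a Ly108+CXCR6- gate where the paper's methods state Ly108+CD39-. The libraries of a genotype are numbered as replicates from a group of mice, but whether cells of several animals were pooled into an RNA-seq library is not spelled out, and the p-values measure the genotype difference against the spread between libraries.

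The RNA-seq libraries of WT cells held 146456724, 144503203 and 193568919 counted reads in replicates 1 to 3, and those of UTX TCD cells held 61512402, 175462433 and 187275082. Values are given in that order throughout, as normalized counts, the authors' read counts divided by a size factor for each library. Each member was covered by at least 4687 reads in every library. A gene was tested when its mean over the 6 libraries was at least 10 normalized counts, which 14459 genes reached, all 8 members among them. A call required a Benjamini-Hochberg adjusted p under 0.05 from limma, fitted over all tested genes, and an absolute log2 fold change (UTX TCD over WT) above 0.5. The median log2 fold change of all tested genes was -1.81e-04, so the scale was centered between the genotypes. For a single value, 3 libraries against 3 cannot give an exact permutation p below 0.10.

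*Kdm6a*, the X-linked UTX gene, was counted at 28365, 28949 and 29172 in WT and at 24159, 24792 and 24579 in UTX TCD cells. Every UTX TCD library was below every WT library, by a log2 fold change of -0.23 (limma adjusted p = 0.00114, SE 0.04), short of the fold limit. A count over the whole gene does not test whether the floxed exon was lost. *Uty*, the Y-linked relative of *Kdm6a*, was at 0 in each WT library, which allows a share of up to 2.08e-08 of the reads, and at 2.25, 0.80 and 0 in UTX TCD cells.

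The sort markers were read as a check of the labels. *Cd8a* was counted at 272448, 270012 and 274004 in WT and at 311527, 313000 and 270975 in UTX TCD cells, with overlapping groups. *Slamf6*, which encodes the gate protein Ly108, gave 27732, 34096 and 23305 in WT libraries, against 36665, 30979.8 and 35425 in UTX TCD cells, overlapping only through WT replicate 2. Its log2 fold change of 0.29 came to 0.43 without that library and to 0.16 without WT replicate 3, and was called in no case. *Entpd1*, which encodes CD39, stayed between 4.42 and 29.6 normalized counts in all libraries. *Cxcr6*, which encodes the receptor excluded by the labelled gate, was nevertheless counted at 12757, 9619 and 13724 in WT cells and at 5286, 5994 and 5695 in UTX TCD cells. It was lower in all UTX TCD libraries (log2 fold change -1.07, limma adjusted p = 1.31e-04, SE 0.12). *Cd44*, an adhesion receptor of antigen-experienced cells, had a log2 fold change of 0.17 and was not called. WT replicate 2 stood apart from every other library at *Il7r*, the receptor for the survival cytokine IL-7, with 79127 normalized counts against 37105 to 40509 in the other libraries. The values of *Il7r*, *Bcl2l11*, *Bbc3* and *Gimap1* are therefore also given without it, as those of *Slamf6* were.

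Of the 8 members, *Gimap7*, *Gimap3* and *Gimap8* rose in UTX TCD cells (n = 3 per genotype). *Gimap7* rose 3.13-fold (95% interval of the log2 fold change 1.49 to 1.81), *Gimap3* 2.28-fold (1.08 to 1.29) and *Gimap8* by a log2 fold change of 0.58 (0.45 to 0.72). These 3 calls compare with 17.6% of all tested genes called in either direction and 10.5% called higher. No member was called lower by limma, against 7.05% of tested genes, and 1 member, *Gimap1*, was lower at an unadjusted p under 0.05, against 24.7% of tested genes. At that limit *Gimap3*, *Gimap6*, *Gimap7* and *Gimap8* were higher, against 24.4% of tested genes. Count models on the recovered reads called 3 members higher and 0 lower, with edgeR and with DESeq2 alike. The genotypes did not overlap at 6 of the 8 members, 4 of them with UTX TCD above and 2 with UTX TCD below, where 51.9% of all tested genes showed no overlap. The median log2 fold change of the members was 0.17. In bulk libraries such as these, a change in the share of cells that make a transcript and a change in the transcript per cell cannot be told apart.

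Among the members tied to the upkeep of mature T cells, *Gimap1* was counted at 13783, 15711 and 13258 in WT and at 10543, 9991 and 9910 in UTX TCD cells. Each UTX TCD library held less than any WT library, by a log2 fold change of -0.49 (limma adjusted p = 4.12e-04, SE 0.06), just short of the fold limit of 0.5. With TMM scaling *Gimap1* came to -0.50 and was called lower, as it was without WT replicate 1 (-0.51), without WT replicate 3 (-0.54) or without UTX TCD replicate 1 (-0.51). It came to -0.41 without WT replicate 2 and to -0.42 with libraries scaled to the same sum, and was called in neither case. *Gimap1os*, a transcript named for its place on the strand opposite *Gimap1*, was counted at 1184, 1290.4 and 913 in WT and at 1323, 1041 and 1052 in UTX TCD cells. These groups overlapped (log2 fold change 0.02, adjusted p = 0.931 from limma), and since the strand setting of the counting is not stated, reads of *Gimap1* and *Gimap1os* may have been shared. Without WT replicate 3 or UTX TCD replicate 1, the *Gimap1os* value was -0.13 or -0.09.

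*Gimap5*, the lysosomal member whose loss leaves rats and mice short of T cells, was nearly level. It was counted at 10639, 11169 and 11038 in WT and at 11058, 11399 and 11102 in UTX TCD cells. The groups overlapped, and the log2 fold change of 0.03 (95% interval from -0.06 to 0.12) was not called. *Gimap3*, the close paralog of *Gimap5*, was counted at 61338, 66704 and 64210.1 in WT and at 144413, 146647 and 146594 in UTX TCD cells. The UTX TCD libraries were tightly grouped, and each held more than any WT library (log2 fold change 1.19, limma adjusted p = 2.98e-07, SE 0.05). By the rise in mean normalized counts, 81801 for *Gimap3*, only 3 of the 14459 tested genes gained more. *Gimap3* and *Gimap5* are the only members whose transcripts share whole stretches of 50 bases, the length of a sequenced read. Such stretches make up 190 of 1914 windows in *Gimap3* (9.93%) and 190 of 1796 in *Gimap5* (10.6%), and how reads that map to both were counted is not stated.

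*Gimap4*, the member tied to T cell death, was counted at 51959, 58496 and 53516 in WT and at 53754, 54585 and 71886 in UTX TCD cells. Replicate 3 of UTX TCD stood above the rest while its other replicates lay among the WT values. The log2 fold change of 0.12 (limma adjusted p = 0.373, SE 0.10) went to -0.01 without that library. *Gimap6*, which binds a protein of the ATG8 family and takes part in autophagy, was counted at 81351, 79376 and 84032 in WT and at 90990.1, 94296 and 99315 in UTX TCD cells. Every UTX TCD library was above every WT library, yet the log2 fold change of 0.22 (limma adjusted p = 0.00675, SE 0.05) did not reach the fold limit.

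*Gimap7*, a soluble member that splits GTP when it pairs with itself or another GIMAP, was counted at 4969, 5879 and 5304 in WT and at 15894, 16610.2 and 18044 in UTX TCD cells. It was the least abundant member per kb in WT cells and rose the most of the family, in all 3 UTX TCD libraries (log2 fold change 1.65, limma adjusted p = 5.64e-07, SE 0.07). *Gimap8*, the longest member, with several GTPase domains in a single protein, was counted at 61083, 70394 and 62239 in WT and at 94652, 97099 and 98091 in UTX TCD cells. The groups were far apart compared with their spread (log2 fold change 0.58, limma adjusted p = 7.99e-05, SE 0.06), although a limit of 1.5-fold would leave *Gimap8* uncalled. *Gimap9* was counted at 18359.6, 19818 and 18537 in WT and at 17691, 17908 and 17665 in UTX TCD cells. All UTX TCD libraries were slightly below all WT libraries, with a log2 fold change of -0.09 (95% interval from -0.19 to 0.01) that did not pass the test.

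**Figure D1:**
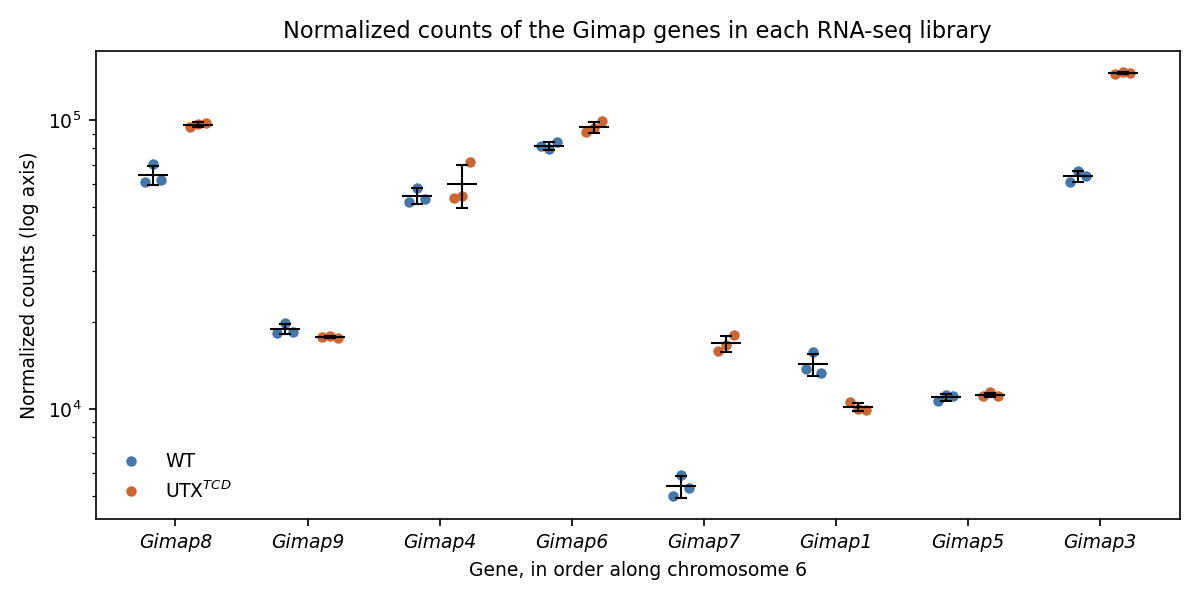
Normalized counts of the 8 *Gimap* genes (log axis) in each of the 3 WT (blue) and 3 UTX TCD (orange) RNA-seq libraries, in their order along chromosome 6; horizontal lines mark the mean and bars the SD over 3 libraries. UTX TCD libraries sit well above WT at *Gimap7* and *Gimap3*, above at *Gimap8* and below at *Gimap1*.

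Levels of different genes were compared per kb of exon, using the joined RefSeq exons of each gene. In WT cells *Gimap6* led with 50612 ± 1450 normalized counts per kb (SD, n = 3), rank 124 of the 13513 tested genes with a length. *Gimap4* (30197 ± 1886) and *Gimap3* (29876 ± 1252) followed and did not differ beyond their spread. Below them came *Gimap8* (17452 ± 1372), *Gimap9* (13670 ± 576), *Gimap1* (9469 ± 858), *Gimap5* (5635 ± 142) and *Gimap7* (4243 ± 363), each apart from its neighbor by more than their SDs. In UTX TCD cells *Gimap3* took the lead at 68012 ± 594 per kb (SD, n = 3), rank 75, ahead of *Gimap6* at 58851 ± 2600 and *Gimap4* at 33191 ± 5656. *Gimap8* stood at 26112 ± 478, and *Gimap7* (13278 ± 863) drew level with *Gimap9* (12838 ± 96.5), from which it did not differ beyond the spread. *Gimap1* (6743 ± 229) and *Gimap5* (5757 ± 95.4) were then the lowest.

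Summed over the 8 members, the family held 303482, 327548 and 312136 normalized counts in WT libraries, against 438996, 448535 and 472608 in UTX TCD cells. That was 0.209%, 0.230% and 0.211% of all counts in WT libraries, against 0.317%, 0.319% and 0.342% in the UTX TCD libraries. Each UTX TCD library was above each WT library, and the mean sum was 1.44-fold higher (two-sided exact permutation p = 0.1, the smallest that 3 libraries against 3 allow). The make-up of the family also differed between the genotypes. As a share of the summed counts per kb, *Gimap3* took 18.3%, 18.6% and 18.6% in WT libraries, against 31.0%, 30.8% and 29.0% in UTX TCD cells. *Gimap7* took 2.51%, 2.78% and 2.60% in WT libraries, against 5.77%, 5.90% and 6.04% in UTX TCD cells. *Gimap6* was at 31.4% ± 1.67 (SD, n = 3) in WT and 26.2% ± 0.185 in UTX TCD cells, and *Gimap9* at 8.48% ± 0.121 and 5.72% ± 0.256. *Gimap4* took 18.4%, 19.4% and 18.4% in WT libraries, against 13.7%, 13.6% and 16.9% in UTX TCD cells. *Gimap5* took 3.51%, 3.45% and 3.54% in WT libraries, against 2.62%, 2.64% and 2.43%. *Gimap1* was at 5.87% ± 0.385 and 3.01% ± 0.216. For those 7 members no library of one genotype crossed into the range of the other (exact permutation p = 0.1 for each). Shares of a fixed whole are not separate measurements, and *Gimap6* and *Gimap5* took smaller shares although their counts were higher and level. *Gimap8*, at 10.8% ± 0.508 and 11.6% ± 0.318, kept an overlapping share (exact permutation p = 0.2).

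For each called member, the 3 genes at the smallest distance over the 6 libraries were found among tested genes within 2-fold of its mean count. The distance was the root mean square difference of log2 values after the WT mean was taken off. It therefore reflects the size of the genotype difference as well as the course within a genotype. Closest to *Gimap7* among 3521 candidates were *Ifih1*, an RNA sensor, at 0.13, *Dhx58*, which encodes the RNA helicase LGP2, at 0.17, and *Eif2ak2*, which encodes the kinase PKR, at 0.21. *Ifih1* was counted at 4946, 4998 and 5045 in WT and at 17012, 16779 and 15224 in UTX TCD cells (log2 fold change 1.71). *Dhx58* and *Eif2ak2* rose by 1.58 and 1.72. Among the UTX TCD libraries, all 3 genes were lowest in replicate 3, where *Gimap7* was highest. Closest to *Gimap3* among 435 candidates were *Kbtbd11* at 0.18, the helicase gene *Helz2* at 0.32 and *Parp14*, an ADP-ribosyltransferase gene, at 0.32. *Kbtbd11* went from 41251, 50809 and 43768 in WT to 81907, 86233 and 98719 in UTX TCD cells (log2 fold change 0.98), and *Helz2* and *Parp14* rose by 0.78 and 0.74. Closest to *Gimap8* among 644 candidates were *Il2rb*, the receptor chain that IL-2 and IL-15 share, at 0.07, *Ly6e*, a surface protein gene, at 0.07 and *Samd9l* at 0.08. *Il2rb* was counted at 38451, 41256 and 37165 in WT and at 62265, 61468 and 56764 in UTX TCD cells (log2 fold change 0.63), and *Ly6e* and *Samd9l* rose by 0.68 and 0.64.

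Partners that GIMAP proteins have been linked to were examined as lists, whose calls are to be read beside the 10.5% of all tested genes called higher and the 7.05% called lower. Of 18 BCL2 family genes, which set the threshold for mitochondrial cell death, 15 were tested, 2 were called higher and 2 lower, with a median log2 fold change of -0.11. At an unadjusted p under 0.05, 4 were higher and 6 lower, beside 24.4% and 24.7% of all tested genes. The list summed to 123225, 133380 and 128472 in WT libraries, against 138727, 143966 and 149019 in UTX TCD cells. *Bcl2*, the survival factor, was counted at 18200.1, 17081 and 17912 in WT and at 40707, 39557 and 49953 in UTX TCD cells. It rose in all 3 UTX TCD libraries by a log2 fold change of 1.28 (limma adjusted p = 6.75e-06, SE 0.08). *Bbc3*, which encodes the death promoter PUMA, rose by 1.41 (SE 0.18). In WT replicate 2 its count was 1255, against 763 and 760 in WT replicates 1 and 3, and without that library the rise was 1.65. *Bmf*, another promoter of cell death, went from 1212, 1370.3 and 1228 in WT to 189, 176 and 87.7 in UTX TCD cells (log2 fold change -3.14, SE 0.26), and the survival gene *Bcl2l2* fell by 0.72 (SE 0.16). *Bcl2l11*, which encodes the death promoter BIM, was counted at 13309.6, 20349 and 13858 in WT and at 11854, 12778 and 10544 in UTX TCD cells. The difference of -0.41 on the log2 scale was -0.22 without WT replicate 2 and short of the fold limit in either case, though without WT replicate 1 it came to -0.52 and was called. *Bcl2l1* (0.32) and *Bax* (0.07) were not called.

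Of 20 genes of the ATG8 family and autophagy, all were tested, 1 was called higher and 1 lower, with a median of -0.11. At an unadjusted p under 0.05, 3 were higher and 10 lower (24.4% and 24.7% of all tested genes), and the list summed to 185934, 189980 and 188759 in WT libraries, against 171271, 174073 and 168712 in UTX TCD cells. *Gabarapl1*, an ATG8 gene, went from 726, 845 and 548 in WT to 1239, 1139 and 1149 in UTX TCD cells (log2 fold change 0.76, limma adjusted p = 0.00312, SE 0.15). *Atg14*, a subunit of the lipid kinase complex that starts autophagosomes, went from 11041, 13116 and 10830.2 to 6037, 5988 and 5737 (log2 fold change -0.97, limma adjusted p = 1.54e-05, SE 0.07). *Gabarapl2*, which encodes the ATG8 protein that GIMAP6 binds, had a log2 fold change of -0.27 and was not called. Neither of the 2 genes of GSK3, the kinase that GIMAP5 restrains, was called by limma, edgeR or DESeq2, with *Gsk3b* at 0.22, *Gsk3a* at -0.29 and a median of -0.03. At an unadjusted p under 0.05, which 24.4% of all tested genes passed as higher and 24.7% as lower, 1 was higher and 1 lower.

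Of 12 septin genes, which encode related GTPases, 10 were tested, 2 were called higher and 1 lower, with a median of -0.04, and *Septin12* was at 0 in every library. At an unadjusted p under 0.05, 2 were higher and 4 lower (24.4% and 24.7% of all tested genes), and the list summed to 307820, 294757 and 309663 in WT libraries, against 263716, 263073 and 259878 in UTX TCD cells. The abundant *Septin1* (-0.29), *Septin6* (-0.21) and *Septin9* (-0.35) were below WT in each UTX TCD library and short of the fold limit. *Septin8* went from 756, 446 and 777 in WT to 290.2, 234 and 171 in UTX TCD cells (log2 fold change -1.50, SE 0.25). The higher calls were of genes with few counts, *Septin5* (14.8 to 54.5 over all libraries, log2 fold change 1.10) and *Septin10* (80.0 to 167, log2 fold change 0.62). *Septin5* lost its call with DESeq2, with no filter on low counts, and without any WT replicate or UTX TCD replicate 1 or 3, and *Septin10* with no filter and without WT replicate 1 or 2 or any UTX TCD replicate. Of 16 genes of T cell quiescence and lymph node homing, all tested, 1 was called higher and 0 lower by limma, as by edgeR and DESeq2, with a median of -0.06. At an unadjusted p under 0.05, 4 were higher and 4 lower, near the 24.4% and 24.7% of all tested genes. *Bach2*, a repressor that keeps T cells stem-like, went from 25577, 27084 and 25427 in WT to 40262, 40434 and 36921 in UTX TCD cells (log2 fold change 0.59, limma adjusted p = 3.03e-05, SE 0.05). *Foxo1*, which encodes a transcription factor of quiescent T cells, had a log2 fold change of -0.15. *Il7r* came to -0.29 with all libraries and to 0.07 without WT replicate 2, and was called in neither case.

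Markers of other cell types were summed in each library, and their part in the results above was not tested. CD8 T cell genes (4 of 4 tested, most abundant *Cd8a*) summed to 697302, 664750 and 674012 in WT and to 705631, 682346 and 620871 in UTX TCD cells, with 0 calls by limma, edgeR or DESeq2 and 1 gene higher and 2 lower at an unadjusted p under 0.05 (24.4% and 24.7% of all tested genes). B cell genes (3 of 4 tested, most abundant *Cd79b*) summed to 2925, 2419 and 2769 in WT and to 1199, 1069 and 933 in UTX TCD cells. Among these, *Cd79b* was called lower (-1.98) and *Ms4a1* higher (1.72, from 5.94 to 73.0 counts over all libraries), while *Cd79a* overlapped (0.19) and *Pax5* was at 0 in 1 library. Myeloid genes (3 of 5 tested) summed to 543, 556 and 528 in WT and to 135, 175 and 135 in UTX TCD cells, led by *Itgam* (-2.57, lower), which activated T cells also express, with *Csf1r* lower as well (-1.85), *Lyz2* overlapping (0.07) and *Cd14* at no more than 3.96 counts. NK cell genes (2 of 3 tested) summed to 13406, 15370 and 13193 in WT and to 19113, 19092 and 26857 in UTX TCD cells, nearly all of it *Eomes* (0.62, higher), which CD8+ T cells also express, while *Klrb1c* (-1.18, at most 55.3 counts) overlapped between the genotypes and *Ncr1* was at 0 in 4 libraries. CD4 T cell genes (3 of 3 tested, most abundant *Foxp3*) summed to 450, 378 and 404 in WT and to 382, 364 and 346 in UTX TCD cells. *Cd4* was called lower (-0.74), though not by DESeq2, while *Foxp3* overlapped (0.05). *Cd40lg* (-0.82) was below WT in each UTX TCD library and not called. At an unadjusted p under 0.05, 0 genes of this list were higher and 2 lower (24.4% and 24.7% of all tested genes). Dendritic cell genes (1 of 4 tested, most abundant *Xcr1*) summed to between 161 and 172 in all libraries, and stromal genes (2 of 3 tested, most abundant *Col1a1*) to between 414 and 668, with 0 calls by limma, edgeR or DESeq2 and 0 genes at an unadjusted p under 0.05 in either list. Endothelial genes (1 of 4 tested) summed to 31201, 29401 and 31350.4 in WT and to 37074, 37241 and 33074 in UTX TCD cells, nearly all of it *Pecam1*, which T cells also express and which was not called. *Cdh5*, not tested, was at 24.8, 21.7 and 9.91 in WT and at 0 in every UTX TCD library.

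Genes beside the cluster were examined to see whether calls lay within it alone. Within 200 kb of the outermost members, 28 reference genes were found, 13 were listed in the count table and 10 were tested, with a median log2 fold change of 0.24. Calls were made for 4 of them, where 17.6% of all tested genes were called. Of these, 2 were called higher, the low-count *Sspo* (9.91 to 80.1 counts over all libraries, log2 fold change 2.39) and *Atp6v0e2* (0.82), which encodes a subunit of the proton pump. *Lrrc61* (-0.56) and the low-count *Gm5111* (-1.92, from 4.80 to 35.7 counts) were called lower. All 4 lie before *Gimap8*, as do all tested flanking genes except *Tmem176b* and *Tmem176a*, which lie after *Gimap3*. *Lrrc61* lost its call without UTX TCD replicate 2 (-0.49) and at a limit of 1.5-fold. *Zfp862-ps* (0.31), *Repin1* (0.20), *Zfp775* (0.08), *AI854703* (0.30) and *Tmem176b* (0.28) were not called, nor was *Tmem176a* (-0.46), which ranged from -0.91 without UTX TCD replicate 3, where it was called lower, to -0.20 without UTX TCD replicate 1. Without UTX TCD replicate 3, *AI854703* came to 0.19 and *Tmem176b* to 0.12.

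The ATAC-seq table lists 23932 peaks that passed the authors' FDR limit of 0.05, each with the authors' mean log2 concentration of reads per genotype, so no spread between libraries can be given. Of these, 22 carry the name of a member, and 21 (95.5%) were more open in UTX TCD cells, where 68.8% of all listed peaks were. By the annotation in the table, 5 lie at promoters, 5 in introns, 1 in an exon, 1 at a gene end and 10 between genes. They belong to 7 members, with 6 peaks for *Gimap3*, 4 for *Gimap7*, 3 each for *Gimap1*, *Gimap4* and *Gimap6*, 2 for *Gimap8* and 1 for *Gimap9*, and *Gimap5* has none. Most differences were modest, since the median of the 21 more open peaks was 0.46 on the log2 scale, against 0.69 for all more open peaks of the table. A difference above 1 was found at 18.2% of the member peaks and at 29.3% of all listed peaks. The peaks carry numbers that follow position along the chromosome, and 13 of the 35 numbers in this stretch are not in the table used here.

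The largest difference lay in intron 1 of 4 of *Gimap8*, at chr6:48649792-48650192, where the authors' mean went from 6.30 in WT to 8.48 in UTX TCD cells (difference 2.18). *Gimap3* came next, with a peak 14406 bp before its start at chr6:48785057-48785457 (4.55 in WT and 6.55 in UTX TCD cells, difference 2.00). At the end of *Gimap3*, chr6:48763556-48763956, the means were 6.38 and 8.09 (difference 1.71). These 3 sites were faint in WT cells compared with the other member peaks, which had WT means between 8.13 and 12.06. The promoters, by contrast, were strong in both genotypes. At the *Gimap7* promoter, chr6:48718434-48718834, the mean was 11.56 in WT and 11.92 in UTX TCD cells, and at the *Gimap3* promoter, chr6:48770685-48771085, it was 10.53 and 11.19. The promoter peaks of *Gimap6* (10.25 and 10.80) and *Gimap8* (10.66 and 10.95) differed by 0.55 and 0.29.

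*Gimap1* had more open peaks beside lower counts. Its promoter peak, chr6:48738941-48739341, had a mean of 11.13 in WT and 11.64 in UTX TCD cells. A peak 1894 bp before its start, chr6:48736953-48737353, went from 9.42 to 10.59 (difference 1.17), and one 5916 bp before it from 12.06 to 12.42. All 3 were higher in UTX TCD cells while the RNA of *Gimap1* was lower in each library. *Gimap9* held the single less open peak, 9881 bp before its start at chr6:48666054-48666454, with 8.71 in WT and 7.91 in UTX TCD cells (difference -0.80). *Gimap4*, whose transcripts were not called, had 3 more open peaks with differences of 0.27 to 0.46. Outside the cluster, 5 of 7 listed peaks within 200 kb before it and 4 of 4 after it that bear other gene names were more open in UTX TCD cells. The share over all listed peaks was 68.8%.

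**Figure D2:**
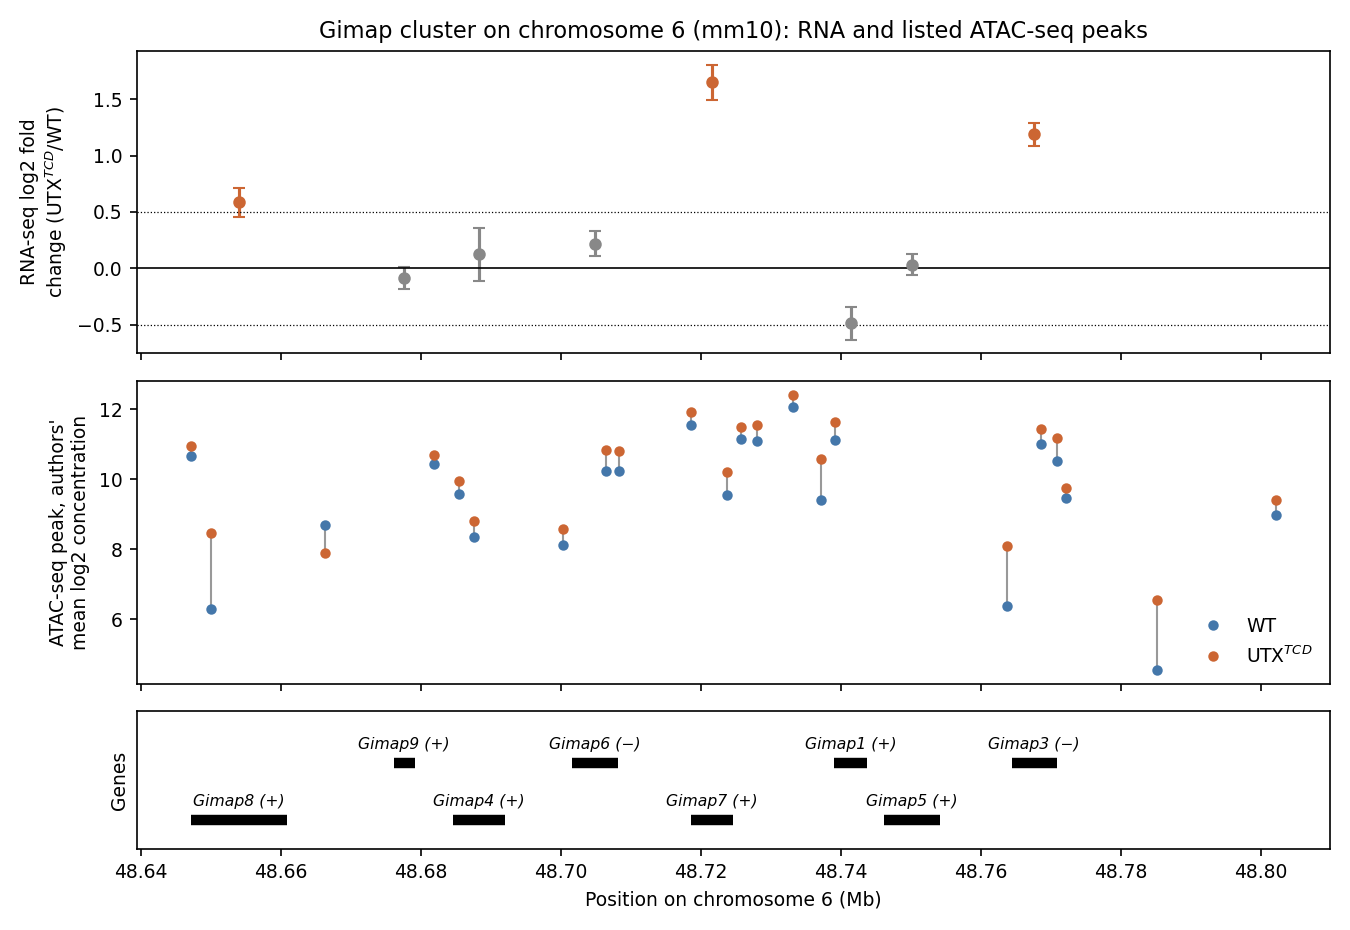
The *Gimap* cluster on chromosome 6 (mm10, position in Mb): above, the RNA-seq log2 fold change of each member (points at gene centers, orange where called, bars the 95% interval, dotted lines the fold limit); middle, the authors' mean log2 concentration of each of the 22 listed peaks in WT (blue) and UTX TCD (orange) cells; below, the genes with their strand. The peaks are higher in UTX TCD cells except 1 near *Gimap9*, whereas the called genes are *Gimap8*, *Gimap7* and *Gimap3*.

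Short motifs were searched on both strands in the mm10 sequence of the peaks, as a description of letters and not of binding. The STAT motif TTCNNNGAA was present in 8 of the 22 member peaks (36.4%) and in 11.9% of the 23907 listed peaks of the same width. Among RefSeq promoter windows of 300 bases, it was in 4 of 9 windows of the 8 members (44.4%) and in 8.30% of all 32851 windows. The core CTTTGA of TCF1 and LEF1 was in 6 member peaks (27.3%) and 30.6% of all, and in 2 promoter windows (22.2%) and 16.0% of all. The RUNX motif TGTGGT was in 9 member peaks (40.9%) and 39.7% of all, and in 3 promoter windows (33.3%) and 16.8% of all. The ETS motif AGGAAG was in 14 member peaks (63.6%) and 56.5% of all, and in 7 promoter windows (77.8%) and 35.4% of all. The STAT matches, the motif whose share among member peaks differed most from that of all peaks, are printed with 10 bases on either side, in capitals, on the plus strand of mm10 (RefSeq, GRCm38.p6). They lie at chr6:48647304-48647332 (*Gimap8* promoter), chr6:48681901-48681929 (before *Gimap4*), chr6:48687566-48687594 (*Gimap4* intron), chr6:48708050-48708078 (*Gimap6* promoter), chr6:48718651-48718679 (*Gimap7* promoter), chr6:48727940-48727968 (after *Gimap7*), chr6:48770838-48770866 (*Gimap3* promoter) and chr6:48785315-48785343 (before *Gimap3*). Those in the *Gimap4* intron and at the *Gimap7* promoter overlap a CTTTGA match, that in the *Gimap4* intron also overlaps a TGTGGT match on the other strand, and that at the *Gimap8* promoter overlaps an AGGAAG match on the other strand. Promoter is here the annotation of the peak. The matches named for the promoters of *Gimap8*, *Gimap6* and *Gimap7* lie past the RefSeq start, inside the gene, and that of *Gimap3* spans the start. The mice were NOD, and bases at which NOD differs from this C57BL/6J sequence were not examined.
Gimap8 promoter: aacctctttcTTCCTAGAAacatttggaa
Before Gimap4: ttagaaagggTTCCGGGAAatgggctgac
Gimap4 intron: catcagctctTTCTTTGAAccacaccagt
Gimap6 promoter: gaaatgtagaTTCTCTGAAagaatgaata
Gimap7 promoter: tgcagtcagaTTCTTTGAAgaaggtgtga
After Gimap7: tctgagaactTTCTGAGAAgtggatgtca
Gimap3 promoter: gtacatgagtTTCTCTGAAaaggggtgct
Before Gimap3: aagtttctgaTTCCTGGAAtttgacttgt

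The 4 more open peaks with a difference above 1 and the single less open peak are shown so that their sequence can be read beside their values. Each is 300 bases of the plus strand of mm10 chosen to hold the most matches, with matches to any of the 4 motifs in capitals. The *Gimap8* intron window, chr6:48649834-48650133, holds 1 ETS match. The distal *Gimap3* window, chr6:48785107-48785406, holds 1 STAT and 1 TCF1 and LEF1 match. The window at the end of *Gimap3*, chr6:48763606-48763905, holds 1 ETS match. The *Gimap1* window, chr6:48737022-48737321, holds 3 RUNX matches and 1 TCF1 and LEF1 match. The less open *Gimap9* window, chr6:48666104-48666403, holds 1 TCF1 and LEF1, 1 RUNX and 1 ETS match, the RUNX and ETS matches overlapping by 1 base.
Gimap8 intron peak: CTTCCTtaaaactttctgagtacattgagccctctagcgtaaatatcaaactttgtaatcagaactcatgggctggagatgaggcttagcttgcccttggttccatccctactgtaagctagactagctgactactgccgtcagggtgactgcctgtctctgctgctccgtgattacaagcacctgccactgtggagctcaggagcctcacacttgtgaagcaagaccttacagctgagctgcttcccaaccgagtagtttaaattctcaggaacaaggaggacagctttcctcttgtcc
Gimap3 distal peak: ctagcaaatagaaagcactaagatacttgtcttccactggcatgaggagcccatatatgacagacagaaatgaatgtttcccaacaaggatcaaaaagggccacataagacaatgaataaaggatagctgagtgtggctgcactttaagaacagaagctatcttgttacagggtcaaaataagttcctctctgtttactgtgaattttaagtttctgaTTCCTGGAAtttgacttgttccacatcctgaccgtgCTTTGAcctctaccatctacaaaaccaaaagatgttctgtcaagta
Gimap3 gene-end peak: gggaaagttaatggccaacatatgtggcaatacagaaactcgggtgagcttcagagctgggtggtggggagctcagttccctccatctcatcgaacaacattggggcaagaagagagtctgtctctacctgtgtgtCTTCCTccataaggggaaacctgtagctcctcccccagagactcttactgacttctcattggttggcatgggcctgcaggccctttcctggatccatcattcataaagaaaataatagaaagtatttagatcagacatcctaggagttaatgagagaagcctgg
Gimap1 upstream peak: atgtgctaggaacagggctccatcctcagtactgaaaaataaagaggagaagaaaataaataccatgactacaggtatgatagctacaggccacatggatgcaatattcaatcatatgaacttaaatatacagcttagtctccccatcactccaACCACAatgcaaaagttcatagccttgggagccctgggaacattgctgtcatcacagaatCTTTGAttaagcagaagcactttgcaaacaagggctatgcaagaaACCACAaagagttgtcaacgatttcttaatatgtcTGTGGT
Gimap9 upstream peak: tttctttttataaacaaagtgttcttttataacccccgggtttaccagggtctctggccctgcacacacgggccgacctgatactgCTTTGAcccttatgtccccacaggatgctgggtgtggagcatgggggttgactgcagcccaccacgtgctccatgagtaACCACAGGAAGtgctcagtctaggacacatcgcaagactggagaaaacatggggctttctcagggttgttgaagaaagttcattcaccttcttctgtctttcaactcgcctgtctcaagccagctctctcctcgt

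The 250 bases before the starts of the most strongly raised members, *Gimap7* and *Gimap3*, are given from the RefSeq promoter table of GRCm38.p6 on the strand of each gene, with motif matches in capitals. The *Gimap7* sequence, chr6:48718371-48718620 on the plus strand, holds 1 ETS and 1 RUNX match. The STAT match printed above for the *Gimap7* promoter peak, at chr6:48718661-48718669, lies past the start and so outside this sequence. The *Gimap3* sequence, chr6:48770852-48771101 on the minus strand, holds 1 ETS match. The STAT match of the *Gimap3* promoter peak, at chr6:48770848-48770856, is cut by the edge of this sequence and is not marked in it.
Gimap7 promoter: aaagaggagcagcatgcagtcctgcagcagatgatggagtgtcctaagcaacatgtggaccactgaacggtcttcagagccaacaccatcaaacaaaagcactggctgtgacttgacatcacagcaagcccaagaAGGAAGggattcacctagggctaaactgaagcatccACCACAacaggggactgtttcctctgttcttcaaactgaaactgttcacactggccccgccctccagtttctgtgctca
Gimap3 promoter: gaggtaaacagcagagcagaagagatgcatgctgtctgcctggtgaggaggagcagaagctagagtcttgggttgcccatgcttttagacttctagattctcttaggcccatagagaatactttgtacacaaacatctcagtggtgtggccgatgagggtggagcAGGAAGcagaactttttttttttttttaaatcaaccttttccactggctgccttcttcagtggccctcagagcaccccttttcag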

How the data were processed

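After FastQC, the authors mapped RNA-seq reads to mm10 (HISAT2 2.2.1), counted them over genes with featureCounts and scaled each library by its DESeq2 size factor, and the deposited signal is that normalized count. For ATAC-seq the authors used Cutadapt, Bowtie2, Picard, MACS2, DiffBind and HOMER, and the deposited values are log2 concentrations averaged by genotype. A transposase shift is not stated, nor are the gene annotation and strand setting of the RNA-seq counts. The authors' own comparison columns hold log2 fold changes, each p-value and FDR. They were not used, apart from reading that every listed peak had an FDR under 0.05.

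From here, limma 3.58.1 in R 4.3.3 (lmFit, eBayes with trend) was fitted on log2(normalized count + 1) with genotype as its term, on genes averaging at least 10, with Benjamini-Hochberg adjustment over all of them. All values (100%, tolerance 0.1) were whole multiples of a step for each library. Counts recovered in this way were tested with edgeR 4.0.16 (2541 genes called) and DESeq2 1.42.0 (2422 called), beside 2538 by limma. The pipeline was tested on simulated data. Floors of 3 reads cover counting error only. Exon lengths, found for 93.5% of tested genes, positions and sequences came from RefSeq on GRCm38.p6, a C57BL/6J genome. Gene symbols matched a position for 91.6% of listed genes. Exact permutation tests (SciPy 1.17.1) were two-sided.

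The genes named were the members and other *Gimap* genes, *Kdm6a*, *Uty*, the sort markers, up to 5 called genes with the largest change in each list, *Bcl2*, *Bcl2l1*, *Bcl2l11*, *Bax*, *Gabarapl2*, *Gsk3b*, *Il7r* and *Foxo1*, tested flanking genes, the 3 closest patterns of each called member, and every member peak. *Gsk3a*, *Septin1*, *Septin6*, *Septin9*, *Septin12* and the marker genes fall outside this rule and were named after their values were seen. The members and lists were chosen with earlier results of these data known. Alternatives covered scaling, pseudocount, filter, test, fold limit, replicate block, peak limits and each library left out. Protein sequences and the CUT&Tag data were not used here, and 1 gene of the marker lists is not reported and was left out of its list's sum.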

Additional observations from a re-analysis of the deposited data

How the results depend on the processing

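*Gimap3* and *Gimap7* were called higher under every alternative tried, with log2 fold changes of 1.16 to 1.25 and 1.59 to 1.71, and *Gimap8* under all but the 1.5-fold limit, where 2 members were called higher. Of 128 alternative values of the members' log2 fold changes, 123 kept their direction and side of the limits, 4 passed the limits only under the alternative and 1 reversed.

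*Gimap1* sat at the fold limit. It was called lower with TMM scaling (-0.50), and members called lower numbered 1 with TMM scaling and 1 with no fold limit. Leaving out each library in turn gave 0 to 1 members called lower, and log2 fold changes of -0.54 to -0.41 for *Gimap1*, -0.01 to 0.20 for *Gimap4*, -0.48 to 0.07 for *Il7r* and -0.13 to 0.12 for *Gimap1os*. Thus *Gimap4* (-0.011, without UTX TCD replicate 3), *Il7r* (0.070, without WT replicate 2) and *Gimap1os* (-0.13 and -0.09) changed sign, and the cause was not tested. With the same omissions, *Gimap5* ranged from 0.01 to 0.05, *Gimap9* from -0.11 to -0.06 and *Bax* from 0.03 to 0.12. These genes kept their sign and were not called.

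With no fold limit, 5887 genes were called in RNA-seq, 36 of them in the fixed lists, since a criterion was removed. With a minimum mean of 100, which drops low-count genes, 2 flanking genes were called. Without length correction, the share of *Gimap1* differed by -2.29 percentage points, that of *Gimap7* by 2.00 and that of *Gimap9* by -2.09. Member peaks numbered 10 with a difference over 0.5 and 4 over 1.

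With the replicate block, 2474 genes were called, with 3 members higher and 0 lower by limma. The residuals of same-numbered libraries correlated at 0.305, -0.20 and 0.09 for replicates 1 to 3. Whether same-numbered libraries were prepared together is not stated, and so few values cannot decide it. Scaling libraries to the same sum moved the median log2 fold change of all genes by 0.06. For 43 of the other named genes, 665 of 684 alternative values kept direction and call. *Uty*, *Gsk3a*, *Septin1*, *Septin6*, *Septin9*, *Septin12* and the marker genes other than *Cd8a* were not part of that tally. Alternatives for the lists, the flanking genes, these 43 genes and the family sum were chosen after seeing the data. In the shallowest library, of 61512402 reads, 3 reads are a share of 4.88e-08, the floor for a gene at 0.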
